A study of Mus musculus with 27 samples.

Results

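The 10 genes described here encode the subunits of Polycomb repressive complex 2 (PRC2) and were taken as the rows of the gene tables that carry the symbols Ezh1, Ezh2, Eed, Suz12, Jarid2, Mtf2, Phf1, Phf19, Rbbp4 and Rbbp7. All 10 were listed in each of the 3 tables, which held 25807, 25216 and 24849 genes, and all 10 passed the filter on low counts in every comparison. RNA-seq was made from J1 mouse embryonic stem cells (mESCs), a feeder-free ESC line grown with serum and LIF, and all cultures carried a lentiviral control or shRNA vector. Control cells carried a non-targeting shRNA (shNT, 3 libraries), and Gas41 knockdown (KD) cells carried shGas41-1 (3 libraries) or shGas41-2 (2 libraries) and were taken 8 days after infection. Control-vector cells kept with LIF (EB day 0, 2 libraries) were set against embryoid bodies of the same control cells grown without LIF for 6 days (EB day 6, 2 libraries). Per the methods, infected cells were selected with a drug as a population, and an embryoid body (EB) holds several cell types. The labels do not say whether replicates came from separate infections, so the p-values measure the spread between these libraries, which may be technical.

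PRC2 places methyl groups on lysine 27 of histone H3, and the trimethylated form (H3K27me3) marks silent developmental genes. Ezh2 or its paralog Ezh1 is the methyltransferase, Suz12 is the scaffold, Eed binds H3K27me3 and stimulates the enzyme, and the paralogous WD40 proteins Rbbp4 and Rbbp7 bind histones. A core of these joins either a Polycomb-like protein (Phf1, Mtf2 or Phf19), which forms PRC2.1, or Jarid2 with Aebp2, which forms PRC2.2. In ESCs many PRC2-bound promoters also carry H3K4me3 and are called bivalent, and ESCs without PRC2 self-renew but differentiate poorly. Gas41, encoded by Yeats4, is a YEATS-domain reader of acetylated histones in the Tip60/p400 and SRCAP complexes, which exchange H2A.Z, a variant found at the same bivalent promoters.

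The question put to these data was how the mRNA of each PRC2 subunit stood in KD cells and during EB formation. The 12 libraries held between 59224537 and 81524773 counts, and levels are given as CPM, the counts of a gene relative to the total of its library, scaled by TMM over the 12 libraries. A gene was called changed at a false discovery rate (FDR) of 0.05 or less in edgeR's quasi-likelihood test, with adjustment over all genes of that comparison, and a fold of 2 or more is stated where it was also met. ChIP-seq libraries of the same series were not analysed here. Replicate 3 of shGas41-1 stood apart from the other libraries. Over genes, chi-square divided by its degrees of freedom was 134 and 220 between it and replicates 1 and 2 of its group, against 33.5 between those replicates. Relative to the mean of its group, genes in the longest quartile by exon length stood at -0.24 on the log2 scale in this library and those in the shortest quartile at 0.20. The log2 fold changes with shGas41-1 are therefore also given without it.

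The sequences that the shRNAs target in Yeats4 are shown because every KD comparison turns on them. Both lie on the minus strand of mm9.
shGas41-1: gtagcattccacgacgttaag
shGas41-2: atcgttaagccaatcgtttat
The shGas41-1 site is at chr10:116652513-116652533, in exon 7 of 7 and outside the coding sequence, and the shGas41-2 site is at chr10:116659320-116659340, in exon 2 and inside it. The longest run of bases that a target shares with a transcript of any PRC2 subunit was between 6 and 9 for shGas41-1 and between 6 and 8 for shGas41-2, of 21 bases. Yeats4 stood at 61.2, 53.4 and 51.2 CPM in the shNT libraries, at 3.46, 4.40 and 5.07 CPM with shGas41-1, and at 8.81 and 7.97 CPM with shGas41-2. The KD libraries all lay far below the controls, with 7.93% and 15.3% of the control level left (edgeR FDR of 0.000375 and 0.000934). At EB day 6 Yeats4 stood at 47.0 and 52.3 CPM, against 41.5 and 44.2 CPM at EB day 0, and the difference was not called (log2 fold change 0.19, SE 0.09, edgeR FDR 0.105). Without EB day 6 replicate 2 it was called, at 0.27 (edgeR FDR 0.0433).

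In the shNT libraries the subunits were expressed at very different levels when counts were divided by exon length. Rbbp7 was highest at 84.7 CPM per kb, followed by Eed at 65.6, Jarid2 at 48.7, Rbbp4 at 41.8, Suz12 at 35.7 and Mtf2 at 27.6 CPM per kb. The ranges of Jarid2 and Rbbp4 overlapped, and so did those of Rbbp4 and Suz12. Ezh2 stood at 15.9 CPM per kb, above its paralog Ezh1 at 2.96 CPM per kb in each library. The Polycomb-like genes Phf19 and Phf1 were lowest, at 0.922 and 0.881 CPM per kb, with overlapping ranges, and Mtf2 was between 29.1 and 31.6 times as high as Phf19 per length in the 3 libraries. These positions depend on the length used. With the longest annotated transcript in place of the union of all exons, Rbbp4 ranked above Eed with overlapping ranges (78.4 and 70.5 CPM per kb), and Ezh2 came to 37.2 CPM per kb, within the range of Mtf2. Ezh1, Phf19 and Phf1 were the lowest 3 by either length. At EB day 6 the order by exon length was Rbbp7 at 172 CPM per kb, Suz12 at 35.1, Rbbp4 at 34.6, Eed at 23.2, Jarid2 at 22.8, Mtf2 at 20.8 and Ezh2 at 14.8 CPM per kb. Suz12 and Rbbp4 overlapped there, as did Eed and Jarid2.

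**Figure D1:**
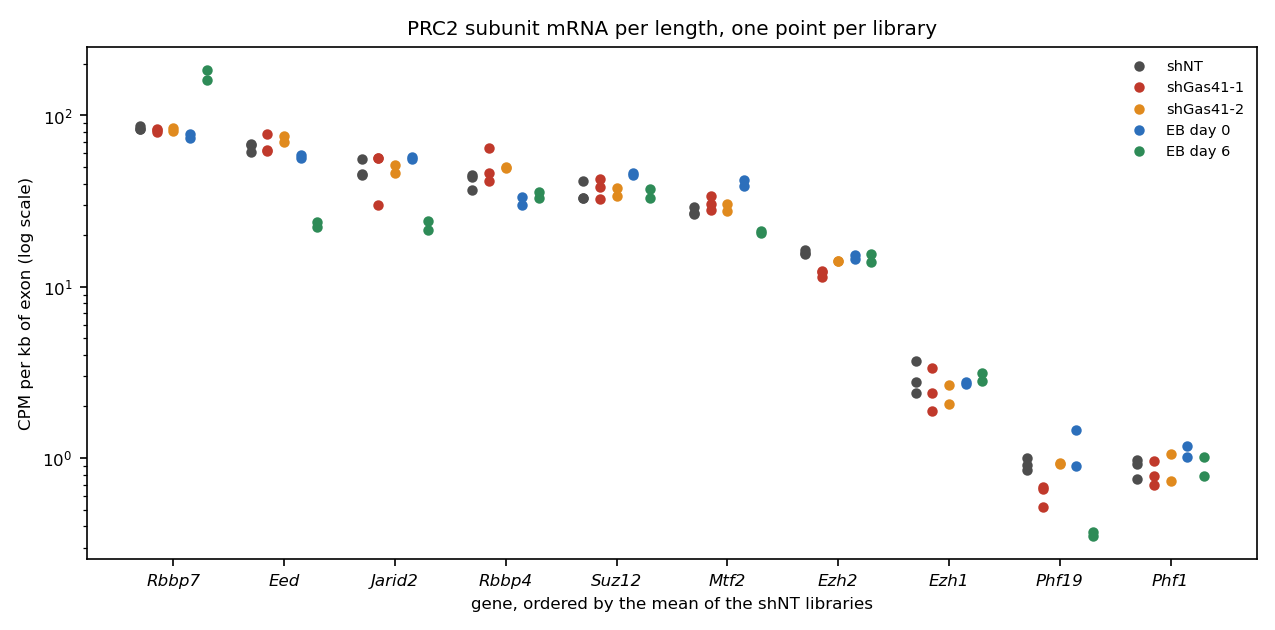
CPM per kilobase of exon (log axis) of the 10 PRC2 subunit genes, with 1 point per library coloured by group. Rbbp7 is highest in every group by this length, at 84.7 CPM per kb in shNT and 172 CPM per kb at EB day 6, while Ezh1, Phf19 and Phf1 lie below the other 7 genes throughout.

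With shGas41-1, 1 of the 10 PRC2 subunit genes was called changed, Ezh2, which fell, and none passed a 2-fold change. Over all 18274 genes tested, 18.5% were called, 7.73% were called lower and 10.3% passed a 2-fold change. With shGas41-2, none of the 10 was called in edgeR, 1 had an unadjusted p under 0.05, and DESeq2 also called 0. Of the 18405 genes tested, 9.91% were called (3.97% lower), 4.82% passed a 2-fold change and 28.3% had an unadjusted p under 0.05. Across the 10 genes, the median log2 fold change was -0.02 with shGas41-1 and 0.01 with shGas41-2, beside 0.02 and -0.01 over all genes tested. The 95% intervals of all 10 genes lay within a 2-fold change in either direction with both shRNAs, from -0.95 to 0.74 on the log2 scale with shGas41-1 and from -0.76 to 0.56 with shGas41-2. How many of all genes had such intervals was not counted, so this is not read as particular to the subunits. Both KDs were compared with the same shNT libraries and are not independent of each other.

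Over EB formation, 5 of the 10 genes fell (Eed, Suz12, Jarid2, Mtf2 and Phf19) and 1 rose (Rbbp7), while Ezh1, Ezh2, Phf1 and Rbbp4 were not called. Over the 18287 genes tested, 58.9% were called, 28.4% lower and 30.5% higher, so 6 of 10 is close to the share of all genes. A 2-fold change was also met by 4 of the 10 (Eed, Jarid2, Phf19 and Rbbp7), against 31.3% of all genes, and the subunits had a median of -0.35 on the log2 scale, beside 0.00 over all genes. The remaining paragraphs take the genes by their roles.

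**Figure D2:**
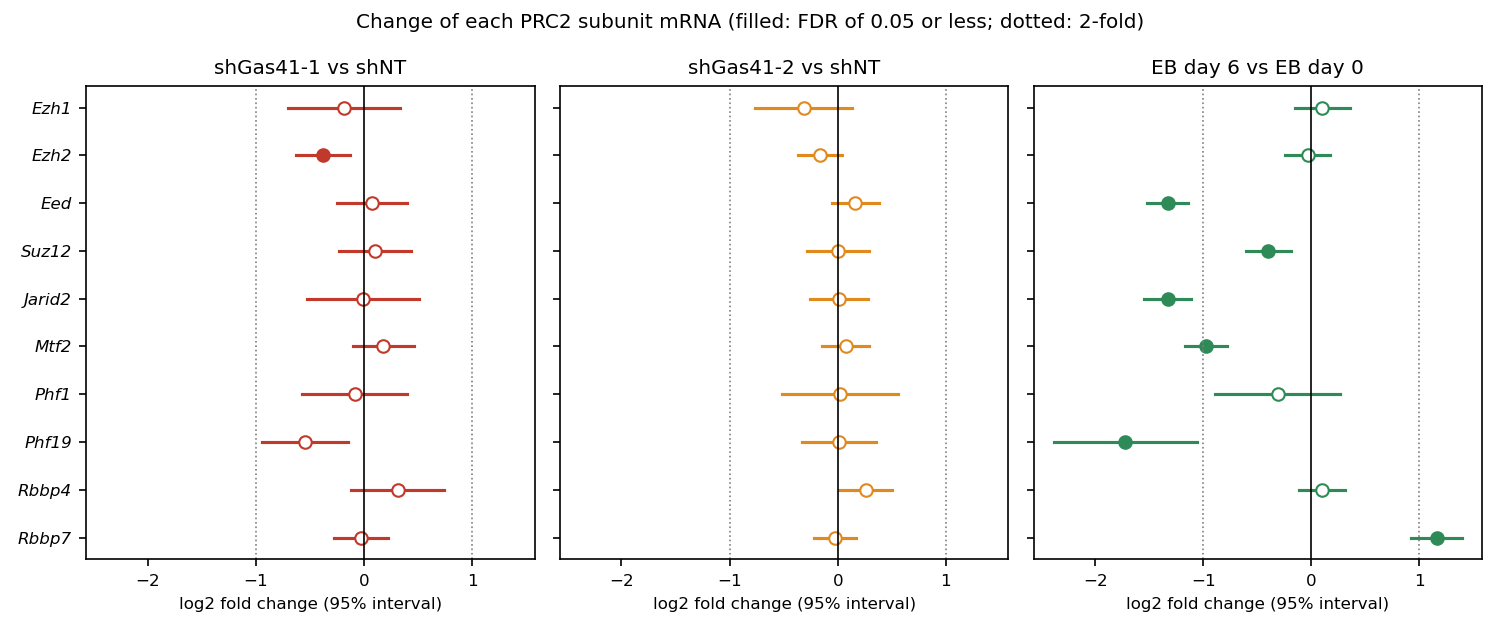
Log2 fold change of each PRC2 subunit mRNA with its 95% interval in 3 comparisons, with filled points for genes called by edgeR and dotted lines at a 2-fold change. Ezh2 is the only filled point with shGas41-1 (-0.38), none is filled with shGas41-2, and 6 are filled at EB day 6, from -1.72 for Phf19 to 1.16 for Rbbp7.

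Ezh2, the main PRC2 methyltransferase of dividing cells (chr6:47480273-47545340 in mm9), stood at 97.6, 96.2 and 102 CPM in the shNT libraries, at 75.9, 76.8 and 70.4 CPM with shGas41-1, and at 87.1 and 87.9 CPM with shGas41-2. All 5 KD libraries lay below all 3 controls, and the shGas41-1 libraries lay below the shGas41-2 libraries. Its log2 fold change was -0.38 with shGas41-1 (SE 0.11, edgeR FDR 0.0445), from 98.6 ± 2.99 to 74.4 ± 3.49 CPM (SD, n = 3 and 3), or 76.8% of the control. With shGas41-2 it was -0.16 (SE 0.09, edgeR FDR 0.261), and the direct test between the shRNAs did not pass (-0.22, SE 0.11, edgeR FDR 0.758). The call with shGas41-1 sat close to the threshold. Without shGas41-1 replicate 3 it was kept at -0.36 (edgeR FDR 0.0304), and DESeq2 gave an adjusted p of 0.00767. It was lost when any other library was left out, with an edgeR FDR of 0.115, 0.145 and 0.139 without shNT replicates 1, 2 and 3 and of 0.133 and 0.0763 without shGas41-1 replicates 1 and 2, although the log2 fold change stayed between -0.40 and -0.36.

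At EB day 6 Ezh2 stood at 86.6 and 96.6 CPM, against 89.7 and 95.5 CPM at EB day 0. The groups overlapped, and the log2 fold change of -0.04 had a 95% interval from -0.24 to 0.17 (edgeR FDR 0.749). Ezh1, the paralog that is more abundant in resting cells, stood between 14.0 and 27.3 CPM in all 12 libraries and was called in no comparison. Its log2 fold change was -0.19 (SE 0.23) with shGas41-1, -0.31 (SE 0.19) with shGas41-2 and 0.10 (SE 0.11) at EB day 6, with edgeR FDRs of 0.586, 0.327 and 0.440. Without shGas41-1 replicate 3 the first of these values was -0.03 (SE 0.20). The ratio of Ezh2 to Ezh1 per length was between 4.49 and 6.54 in shNT, between 3.71 and 6.03 with shGas41-1, 6.82 and 5.32 with shGas41-2, 5.37 and 5.53 at EB day 0, and 4.45 and 5.51 at EB day 6. Ezh2 was the higher of the paralogs in every library, and the ranges of shNT, KD and EB libraries overlapped.

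The promoters of 3 members hold a match to the E2F motif, the site of the factors that drive genes of the cell cycle. The searched letters were TTTCCCGC, TTTCGCGC, TTTGCCGC and TTTGGCGC on either strand, in windows from 250 bases before to 50 after each RefSeq start (GRCm38.p6, a different build from the counts). A match was found in 3 of the 12 windows of the 10 genes, against 2.26% of 32851 windows of the same length, and capitals mark it in the runs below, which are printed because Ezh2 and Phf19 are the subunits with the lowest fold changes with shGas41-1.
Ezh2: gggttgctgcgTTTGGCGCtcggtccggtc
Phf19: gtcaataattcGCGGGAAAacgcgaaaaag
Suz12: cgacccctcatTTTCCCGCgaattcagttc
The first base of the match is at 4 from the start in Ezh2, at -219 in Suz12 and at -208, on the opposite strand, in Phf19. The runs lie at chr6:47595009-47595038 (minus strand), chr11:79992876-79992905 (plus strand) and chr2:34914166-34914195 (minus strand). A CCAAT box was present in 8 of the 12 windows, against 37.4% of all windows, and the octamer ATGCAAAT in none, against 1.74%. Such matches are letters in a window, not binding sites. Suz12, which also holds a match, had a log2 fold change of 0.10 with shGas41-1, and Phf19 had 0.01 with shGas41-2. The part of such matches in these values was not tested.
Of 17 genes of S phase and mitosis, 1 was called with shGas41-1, the nucleotide reductase gene Rrm2, which fell, where 7.73% of all genes were called lower. In edgeR 5 of the 17 had an unadjusted p under 0.05 with shGas41-1. There 3 had a positive log2 fold change, and the median was -0.2, beside 0.02 over all genes. With shGas41-2, 0 were called in edgeR (2 at an unadjusted p under 0.05), 5 had a positive log2 fold change, and the median was -0.06, beside -0.01. The summed level of the 17 genes was between 4570 and 4790 CPM with shGas41-1, between 5190 and 5250 CPM in shNT and 5090 and 5100 CPM with shGas41-2. Among these 3 groups the sums ran in the same order as Ezh2, but not at EB day 0 (4750 and 4890 CPM) or EB day 6 (4680 and 4700 CPM), where the sums were lower than with shGas41-2 and the mean of Ezh2 was higher. Their part in its value was not tested.

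**Figure D3:**
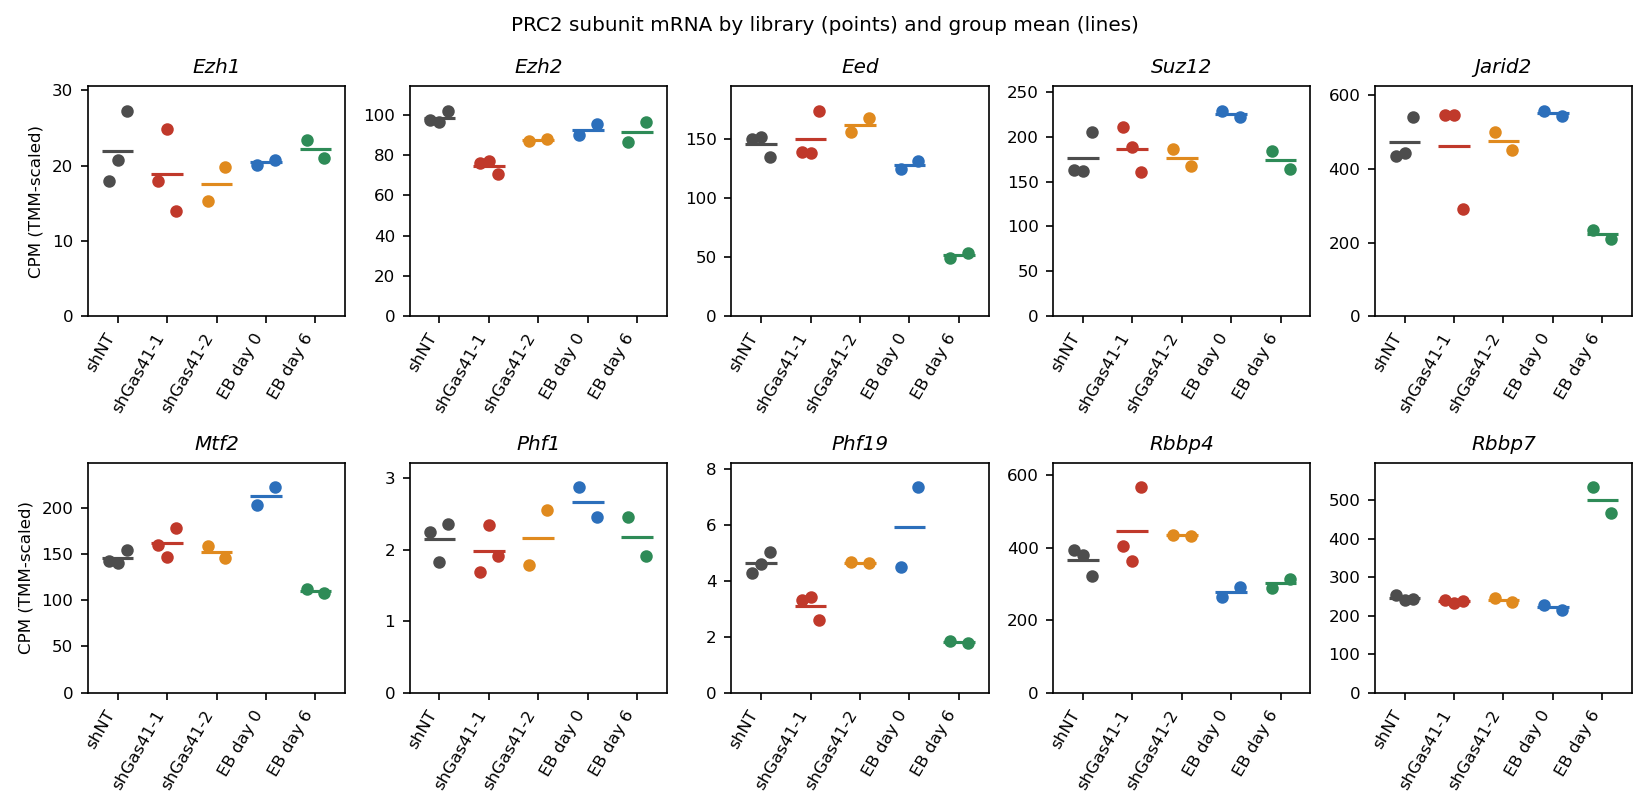
CPM of each PRC2 subunit gene in the 12 libraries (points) with the group mean (lines), each panel with its own axis from 0. The 3 shGas41-1 libraries of Ezh2 lie between 70.4 and 76.8 CPM, below the shNT libraries, and Eed, Jarid2, Mtf2 and Phf19 lie lower at EB day 6 than in any other group.

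Eed, the reader of H3K27me3 within the complex (chr7:97103166-97129493), stood at 125 and 131 CPM at EB day 0 and at 49.7 and 53.3 CPM at EB day 6. The EB day 6 values lay below those of all 10 other libraries. Its log2 fold change was -1.33 (SE 0.08, edgeR FDR 4.02e-05), which left 39.7% of the EB day 0 level. In the shNT libraries Eed was at 150, 152 and 135 CPM, with shGas41-1 at 139, 138 and 174 CPM, and with shGas41-2 at 156 and 168 CPM. The shGas41-1 libraries overlapped the controls (log2 fold change 0.07, SE 0.14, edgeR FDR 0.755; -0.07 without replicate 3). Both shGas41-2 libraries lay above them, and the change was not called (0.16, SE 0.09, edgeR FDR 0.305).

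Suz12, the scaffold on which the core is built (chr11:79806608-79847625), also fell. It stood at 229 and 222 CPM at EB day 0 and at 184 and 164 CPM at EB day 6, and the groups did not overlap. Its log2 fold change was -0.40 (SE 0.09, edgeR FDR 0.00837), or 75.9% of the EB day 0 level. The call was lost without EB day 0 replicate 2 (edgeR FDR 0.0682), without EB day 0 replicate 3 (0.0831) and in a fit over all 12 libraries (0.0608). With shNT, Suz12 stood at 163, 162 and 205 CPM, so the EB day 6 values lay within the range of the shNT controls. With shGas41-1 it stood at 211, 188 and 161 CPM and with shGas41-2 at 186 and 167 CPM, and neither group separated from shNT (log2 fold change 0.10 and 0.01, SE 0.15 and 0.12). Without shGas41-1 replicate 3 the first was 0.18 (SE 0.13).

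The histone-binding paralogs Rbbp7 and Rbbp4, which also serve the NuRD, Sin3 and CAF-1 complexes, are given next. Rbbp7 (chrX:159198334-159217024) stood at 227 and 216 CPM at EB day 0 and at 534 and 467 CPM at EB day 6. The EB day 6 values were the highest of all 12 libraries, and the log2 fold change was 1.16 (SE 0.10, edgeR FDR 0.000138), a 2.23-fold rise. Among the shNT and KD libraries Rbbp7 varied little, at 254, 241 and 244 CPM with shNT, 241, 232 and 239 CPM with shGas41-1, and 245 and 237 CPM with shGas41-2. The log2 fold change was -0.03 with both shRNAs, with 95% intervals from -0.28 to 0.22 and from -0.22 to 0.17, and -0.05 with shGas41-1 without replicate 3.

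Rbbp4 (chr4:128984344-129012614) stood at 264 and 293 CPM at EB day 0 and at 290 and 314 CPM at EB day 6. The groups overlapped, and the log2 fold change of 0.10 had a 95% interval from -0.11 to 0.31 (edgeR FDR 0.372). The shNT libraries held 393, 381 and 322 CPM, the shGas41-1 libraries 405, 364 and 567 CPM, and the shGas41-2 libraries 436 and 433 CPM. The shGas41-2 libraries lay above the controls, and the log2 fold change of 0.26 (SE 0.11) had an unadjusted p of 0.042 in edgeR and an FDR of 0.159. With shGas41-1 it was 0.31 (SE 0.19, edgeR FDR 0.271), and 0.08 (SE 0.11) without replicate 3. The ratio of Rbbp7 to Rbbp4 per length was between 1.90 and 2.28 in shNT, between 1.27 and 1.92 with shGas41-1, 1.69 and 1.64 with shGas41-2, 2.58 and 2.22 at EB day 0, and 5.53 and 4.48 at EB day 6, and no EB day 6 value overlapped another group. Of the exon bases of Rbbp4, 18% overlap exons of Sync or Gm17525 on the other strand, and 5.98% of those of Rbbp7 overlap Txlng. The library kit does not mark strand, so reads of such stretches cannot be told apart, and 3.58% of the 50-base words of Rbbp7 also occur in Gm6382.

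**Figure D4:**
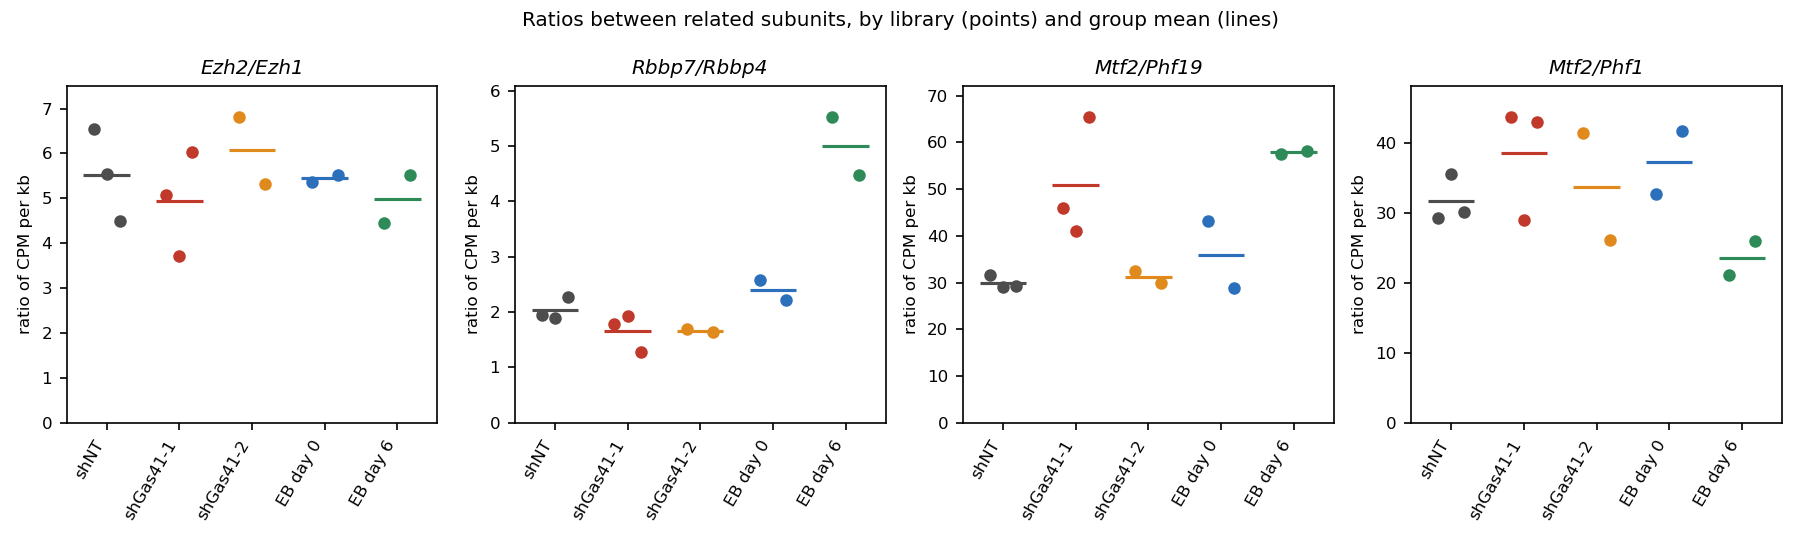
Ratios of CPM per kilobase between related PRC2 subunits in each library (points) with group means (lines), on axes from 0. The ratio of Rbbp7 to Rbbp4 is 5.53 and 4.48 at EB day 6 and at most 2.58 elsewhere. The ratio of Mtf2 to Phf19 is higher at EB day 6 than at EB day 0 (43.1 and 28.9) and higher with shGas41-1 than in shNT. For that ratio EB day 0 overlaps shGas41-1, and the ratios of Ezh2 to Ezh1 overlap among groups.

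Jarid2, the DNA- and ubiquitin-binding partner that defines PRC2.2 (chr13:44824843-45017012), stood at 558 and 543 CPM at EB day 0 and at 235 and 209 CPM at EB day 6. The EB day 6 values were the lowest of all 12 libraries, and the log2 fold change was -1.33 (SE 0.09, edgeR FDR 6.54e-05), or 39.8% of the EB day 0 level. Jarid2 was at 434, 443 and 542 CPM in the shNT libraries, with shGas41-1 at 546, 547 and 291 CPM, and with shGas41-2 at 499 and 450 CPM. The shGas41-1 libraries lay on both sides of the controls, with replicate 3 far below and the others above, and the log2 fold change of -0.01 (SE 0.23) became 0.22 (SE 0.11, edgeR FDR 0.199) without replicate 3. Its exons sum to 9715 bases, the longest of the 10 genes, and the part of the exon-length shift of that library in this value was not tested. With shGas41-2 the log2 fold change was 0.01 (95% interval from -0.25 to 0.28).

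Among the Polycomb-like genes, which link PRC2.1 to DNA and to methylated H3K36, Mtf2 was the most abundant (chr5:108494693-108538023). It stood at 203 and 222 CPM at EB day 0 and at 112 and 108 CPM at EB day 6, below every other library. The log2 fold change was -0.97 (SE 0.08, edgeR FDR 0.000141), or 51.0% of the EB day 0 level. Among KD controls it stood at 142, 140 and 154 CPM, with shGas41-1 at 160, 147 and 178 CPM, and with shGas41-2 at 159 and 145 CPM, and neither KD separated from the controls (edgeR FDR 0.338 and 0.648). The log2 fold change with shGas41-1 was 0.18 (SE 0.13), and 0.08 (SE 0.10) without replicate 3.

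Phf19 (chr2:34749277-34769546) stood at 4.51 and 7.35 CPM at EB day 0 and at 1.86 and 1.77 CPM at EB day 6. The EB day 6 values were the lowest of the 12 libraries, and the log2 fold change of -1.72 (SE 0.27, edgeR FDR 0.00214) was the largest fall among the subunits. Those EB day 6 values rested on 123 and 117 counts. Without EB day 0 replicate 3 the log2 fold change of Phf19 was -1.34, beside -1.35 for Jarid2. In the shNT libraries Phf19 stood at 4.29, 4.61 and 5.02 CPM, with shGas41-1 at 3.33, 3.42 and 2.60 CPM, and with shGas41-2 at 4.68 and 4.63 CPM. All 3 shGas41-1 libraries lay below all controls, and the log2 fold change of -0.55 (SE 0.17) had an edgeR FDR of 0.0604, just above the threshold, and was not called. It passed in DESeq2 (adjusted p 0.0219) and in the fit over all 12 libraries (edgeR FDR 0.0417), and without replicate 3 it was -0.45 (edgeR FDR 0.0872). With shGas41-2 it was 0.01 (SE 0.15), and the direct test between the shRNAs gave -0.56 (SE 0.17), with an unadjusted p of 0.0092 in edgeR and an FDR of 0.496. The ratio of Mtf2 to Phf19 per length was between 41.0 and 65.5 with shGas41-1, 57.6 and 58.1 at EB day 6, 43.1 and 28.9 at EB day 0, 32.5 and 29.9 with shGas41-2, and between 29.1 and 31.6 in shNT. Phf1 (chr17:27070072-27074835) stood between 1.69 and 2.87 CPM in all libraries, on 117 to 215 counts a library, and was called in no comparison. Its log2 fold change was -0.09 (SE 0.21) with shGas41-1 (-0.08 without replicate 3), 0.03 (SE 0.23) with shGas41-2 and -0.31 (SE 0.24) at EB day 6.

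The change over EB formation was tested directly against that with each shRNA in a fit over all 12 libraries, which asks whether Gas41 loss moved the subunits as EB formation did. With shGas41-1, 6 of the 10 genes differed, where 45.1% of 19613 genes did, and with shGas41-2, 5 differed, where 41.6% did. The log2 change of Eed, Jarid2, Mtf2 and Phf19 was higher with KD than over EB formation, by 1.36, 1.28, 1.11 and 1.14 with shGas41-1 and by 1.47, 1.32, 1.02 and 1.71 with shGas41-2. Rbbp7 was lower by this measure, with -1.23 and -1.21. Ezh2 was lower with shGas41-1 (-0.39, SE 0.14, edgeR FDR 0.0407), a call that was lost when any of 9 of the 12 libraries was left out (edgeR FDR up to 0.164), and the call of Phf19 with shGas41-1 was lost without EB day 0 replicate 3 (0.74, edgeR FDR 0.0608). Suz12 was called with shGas41-1 only without shGas41-1 replicate 3 (0.55, edgeR FDR 0.0177) or without shNT replicate 3 (0.58, edgeR FDR 0.0293).

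The undifferentiated control sets of both experiments could also be compared. None of the 10 genes was called between EB day 0 and shNT in edgeR, 3 had an unadjusted p under 0.05 (Mtf2, Suz12 and Rbbp4), and of all genes 0.387% were called and 17.9% had such a p. Mtf2 stood 1.47-fold higher at EB day 0 than in shNT (log2 difference 0.56, SE 0.11, edgeR FDR 0.0555), with no overlap between the groups. It was called by DESeq2, with an adjusted p of 0.000382, where DESeq2 called 1042 of 19613 genes. Without shGas41-1 replicate 3, which enters this fit only through the spread, edgeR called Mtf2 (FDR 0.0120) and Rbbp4 (-0.39, FDR 0.0413), and without shGas41-1 replicate 2 it called Mtf2 (FDR 0.0454). Of all genes, up to 1662 were called with a library left out, against 76 with all libraries. Culture and experiment cannot be told apart in this comparison. Between the shRNAs edgeR called 0 of 19146 genes (0%) and thus 0 of the 10, with 1 of the 10 and 7.04% of all genes at an unadjusted p under 0.05. DESeq2 called 171 genes and 0 of the 10.

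Other genes of the H3K27 pathway were followed as lists. Of the other PRC2-associated genes, 4 were tested with each shRNA and 0 were called in edgeR, with 0 and 1 at an unadjusted p under 0.05. Of 5 tested at EB day 6, 3 fell and 1 rose, where 28.4% of all genes fell and 30.5% rose. E130012A19Rik, which encodes the PRC2.1 subunit Epop, fell by 1.51 on the log2 scale (SE 0.11, edgeR FDR 9.03e-05), from 20807 and 22720 counts at EB day 0 to 7411 and 7254 counts at EB day 6. Aebp2, the partner of Jarid2 in PRC2.2, fell by 0.37 (SE 0.08, edgeR FDR 0.00718). Lcor, another PRC2.1 partner gene, fell by 0.72 (SE 0.21, edgeR FDR 0.0236), and its relative Lcorl rose by 0.41 (SE 0.13, edgeR FDR 0.0287). The opposing enzymes, the H3K27 demethylases Kdm6a and Kdm6b and the acetyltransferases Crebbp and Ep300, were called in none of these 3 comparisons, and 0 of the 4 had an unadjusted p under 0.05. Their log2 fold changes lay between -0.44 and 0.24.

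Classic PRC2 target genes, 28 genes, mostly developmental regulators, known to be bound by PRC2 in ESCs, were followed in the same way. With shGas41-1, 12 of 24 tested rose and 2 fell, with a median log2 fold change of 1.62, beside 0.02 over all genes, of which 10.8% were called higher. A gene near 0 in the controls is tested only if it is higher in the other group. Neurog1, with 2, 0 and 2 counts in shNT and 36, 88 and 27 with shGas41-1, is an example. In each comparison this tilts the count of rises and the median of this list upward, and the median over all genes is not a like background. Gata3, a trophectoderm factor, went from 11, 7 and 6 counts in shNT to 243, 185 and 86 counts with shGas41-1, a log2 fold change of 4.30 (SE 0.43, edgeR FDR 0.0021). Pax6, a neural factor, rose by 2.43 on the log2 scale (SE 0.37, edgeR FDR 0.00451). The 2 that fell were Eomes (-1, edgeR FDR 0.0343) and Tbx3 (-0.85, edgeR FDR 0.0218), named after their values were seen. The summed level of the list was not higher, at 119 to 172 CPM with shGas41-1 against 175 to 234 CPM in shNT. A sum weighs genes by their counts, so Eomes, with 397, 613 and 840 counts in shNT, weighs more in it than Gata3. The sum therefore does not speak to the number of genes that rose. Without shNT replicate 2 the number called was 9 and without shNT replicate 3 it was 7. Over all genes it ranged from 1441 to 3848 with a library left out, against 3383.

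With shGas41-2, 3 of 23 target genes tested rose and none fell, with a median log2 fold change of 0.93, beside -0.01 over all genes, of which 5.94% were called higher. They were Gata3 (3.26, SE 0.37, edgeR FDR 0.00279), the mesoderm factor Evx1 (2.85, SE 0.43, edgeR FDR 0.00905) and the proneural factor Neurog1 (3.67, SE 0.75, edgeR FDR 0.0250). Neurog1 rested on few counts, with 2, 0 and 2 in shNT and 16 and 26 with shGas41-2. The count was 8 without shNT replicate 1 and 7 in DESeq2. The number of all genes called moved too, up to 4131 with a library left out and between 888 and 7046 under the other alternatives, against 1824. At EB day 6, 16 of 23 rose and 2 fell, where 30.5% and 28.4% of all genes did, with a median of 3.88. The primitive streak gene T, also called Brachyury, went from 23 and 23 counts at EB day 0 to 27442 and 34089 counts at EB day 6 (log2 fold change 10.45, SE 0.19, edgeR FDR 1.43e-06). The 2 that fell were Tbx3 (-3.09) and the cell cycle inhibitor gene Cdkn2a (-1.08), both named after their values were seen. Without EB day 0 replicate 3 the number called was 8. Transcript levels alone do not give PRC2 binding or H3K27me3 at these genes.

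**Figure D5:**
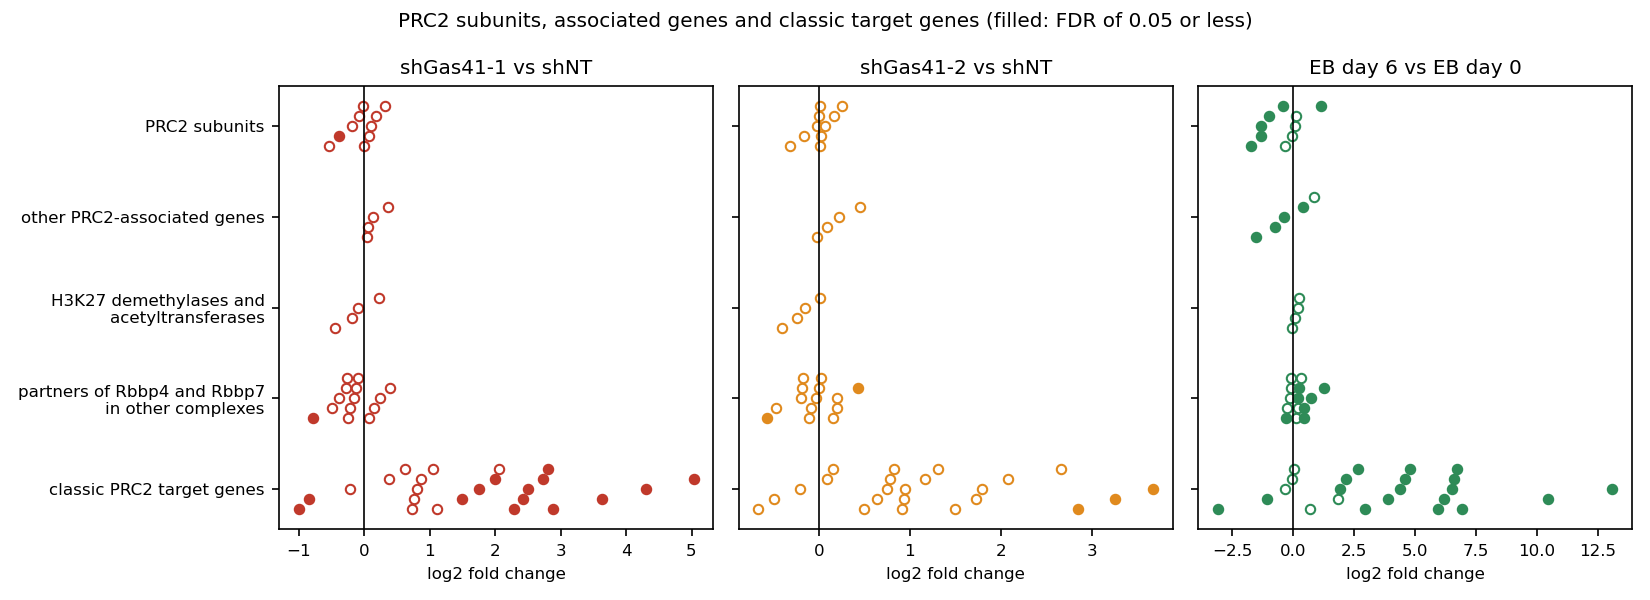
Log2 fold change of each gene tested in 5 lists in 3 comparisons, with filled points for genes called by edgeR and an axis of its own in each panel. PRC2 subunits lie near 0 with both shRNAs. Of the target genes, 12 of 24 rose with shGas41-1, 3 of 23 with shGas41-2 and 16 of 23 at EB day 6. Over all genes tested, 10.8%, 5.94% and 30.5% were called higher. A target gene near 0 in the controls is tested only if it is higher in the other group, which tilts these counts upward.

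Markers of cell states moved with these comparisons. The summed CPM of 8 ESC markers was between 6400 and 6870 in shNT, 5590 and 6730 with shGas41-1, 6360 and 6390 with shGas41-2, 5970 and 6370 at EB day 0, and 1360 and 1730 at EB day 6, where 8 of 8 were called lower. The sum of 11 germ layer markers was 39.9 and 40.1 CPM at EB day 0 and 1660 and 2270 CPM at EB day 6, where 10 of 11 rose. Over all genes, 28.4% were called lower and 30.5% higher at EB day 6. With shGas41-1, 3 of the 8 ESC markers fell, and 3 of the 11 germ layer markers rose and 1 fell, where 7.73% of all genes fell and 10.8% rose, while with shGas41-2, 1 ESC marker fell (3.97% of all genes fell) and 0 germ layer markers were called in edgeR (5 at an unadjusted p under 0.05). Some of these markers, such as Pax6, Eomes and T, are also on the list of target genes. In such bulk libraries, fewer cells of a type and less RNA per cell cannot be told apart, and the part of cell type in the EB changes of the subunits was not tested. The sum of 3 Zscan4 genes, markers of the 2-cell-like state that appears in a small share of ESCs, was between 28.5 and 237 CPM in shNT, 389 and 694 CPM with shGas41-1, and 229 and 552 CPM with shGas41-2. Of 6 markers chosen for this state, only these 3 were in the gene tables. All 3 rose with shGas41-1, where 10.8% of all genes did. Their log2 fold changes lay between 2.47 and 2.56, so they moved together and are not independent observations. With shGas41-2, 0 were called and 3 had an unadjusted p under 0.05 in edgeR, as 28.3% of all genes had. Their part in the values of the subunits was not tested.

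Across the 12 libraries, the levels of the subunits could be set against each other and against all genes, as a description over libraries that share 5 groups. The highest Pearson correlation of log2(CPM + 1) between members was 0.83, for Jarid2 and Phf19, and the lowest was -0.95, for Eed and Rbbp7. Jarid2, Phf19 and Eed were low and Rbbp7 was high in the EB day 6 libraries. Among 11267 genes with a mean of at least 5 CPM, those most like Ezh2 were Eif1ad (0.953), Ifnar2 (0.953) and Uck2 (0.949), and those most like Ezh1 were Tnip1 (0.924), Wwp2 (0.922) and Rxrb (0.910).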

How the data were processed

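RNA-seq of 12 libraries was used, while 15 ChIP-seq libraries were not analysed here. Per the study's methods, libraries were made with a TruSeq RNA kit, reads were mapped to mm9 with TopHat2 (2.0.10 in the submitters' processing notes) and counted per gene with HTSeq. The strand setting is not given in the sources used here. The authors deposited raw counts of every library in 3 tables, beside log2 fold changes, p-values and FDRs of their own edgeR comparisons, which were not used. Control libraries labelled shCon are called shNT as in the study, and columns named ESC as EB day 0.

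Counts were tested here in R 4.3.3 with edgeR 4.0.16 (filterByExpr with minimum count 10 and minimum total 15, TMM, glmQLFit and glmQLFTest, Benjamini-Hochberg adjustment over all genes tested), with 95% intervals. Each table was fitted alone, and comparisons across tables used genes joined by Ensembl identifier (24683 in both KD tables, 23494 in all 3). DESeq2 1.42.0, other scalings, no filter, a replicate block, 1 fit of 12 libraries and each library left out in turn were the alternatives. The test was checked on simulated data, in which the share of false calls lay above the FDR threshold in the KD and EB comparisons against controls, so calls near the threshold are less certain. Libraries held 59224537 to 81524773 counts, and intervals cover the spread between libraries. Exon lengths came from the GENCODE annotation of mm9. The genes named are all 10 subunits, Yeats4, up to 4 genes per list and comparison with the smallest FDR, and the 3 genes most like Ezh1 and Ezh2. The members and lists were chosen with earlier results of these data known.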

Additional observations from a re-analysis of the deposited data

How the results depend on the processing

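Of the log2 fold changes of subunits under alternatives other than leaving out a library, 357 kept their direction and side of the threshold, 6 were lost as calls, 6 were gained and 11 changed sign. With a library left out, the counts were 538, 17, 5 and 30. No value that changed sign was called. The number of subunits called with shGas41-1, 1 here, was 0 with a 2-fold minimum, 0 without the filter on low counts, 2 in DESeq2, 2 in a fit of all 12 libraries, and 0 to 1 with a library left out. Between EB day 0 and shNT it was 1 with library size as the only scaling, 1 in DESeq2 and 0 to 2 with a library left out, against 0. Target genes called with shGas41-2 numbered 7 in DESeq2, against 3. With a library left out, target genes called ranged from 7 to 15 with shGas41-1, 1 to 8 with shGas41-2 and 8 to 19 at EB day 6. Where this left 1 library in a group, it was assumed to vary like the others. The number of all genes called shifted under these alternatives as well, so the shifts are not particular to the subunits or targets. The cause of these shifts was not tested, beyond the smaller number of libraries.

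Replicate numbers were not treated as pairs. The correlation of deviations between libraries of the same number was -0.29, 0.18 and -0.75 for shGas41-1, 0.71 for shGas41-2 and 0.16 for EB libraries, and with shGas41-1 not every library correlated best with its own number. With a replicate block, 0 subunits were called with shGas41-1 (Ezh2 FDR 0.164) and 2 with shGas41-2 (Ezh2 and Rbbp4), and 10 target genes with shGas41-2. Over the alternatives other than leaving out a library, between 888 and 7046 of all genes were called with shGas41-2, against 1824 without a block. The 2 subunit calls are therefore not read as particular to the subunits. Between the shRNAs, the block gave log2 fold changes of 0.04 for Jarid2, -0.01 for Rbbp4 and 0 for Rbbp7, which changed sign.

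Other sign changes were of small values. With library size as the only scaling, Eed came to -0.01 with shGas41-1, and with shGas41-2 Suz12, Jarid2 and Phf19 came to -0.07, Mtf2 to -0.01 and Phf1 to -0.06. Suz12 with shGas41-2 was 0 without the filter and 0 in the fit of all libraries. With a library left out, the log2 fold change with shGas41-1 ranged from -0.07 to 0.14 for Eed, -0.14 to 0.22 for Jarid2 and -0.21 to 0.02 for Phf1. With shGas41-2 it ranged from -0.08 to 0.13 for Suz12, -0.07 to 0.12 for Jarid2, 0 to 0.14 for Mtf2, -0.26 to 0.26 for Phf1, -0.03 to 0.07 for Phf19 and -0.05 to 0.01 for Rbbp7. At EB day 6 it ranged from -0.11 to 0.04 for Ezh2. Between the shRNAs it ranged from -0.11 to 0.33 for Ezh1, -0.16 to 0.22 for Jarid2, -0.36 to 0.18 for Phf1, -0.17 to 0.19 for Rbbp4 and -0.02 to 0.03 for Rbbp7. Between EB day 0 and shNT it ranged from -0.23 to 0.08 for Ezh1 and -0.04 to 0.67 for Phf19, and the shGas41-1 effect minus the EB effect from -0.04 to 0.30 for Rbbp4. Phf1 and Phf19 had the fewest counts among the subunits, and the part of depth in their spread was not tested.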

Other observations

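Rbbp4 and Rbbp7 work in several chromatin complexes, and 14 genes of their partners in the NuRD, Sin3 and CAF-1 complexes were followed beside them. At EB day 6, where Rbbp7 rose, 6 of the 14 rose and 1 fell, against 30.5% and 28.4% of all genes. Mta1, a NuRD subunit, rose by 1.28 on the log2 scale (SE 0.08, edgeR FDR 4.19e-05), from 4172 and 3902 counts at EB day 0 to 9206 and 9534 counts at EB day 6. Chaf1b, a subunit of the chromatin assembly factor CAF-1, rose by 0.72 (SE 0.09, edgeR FDR 0.000715), Sin3b by 0.46 (edgeR FDR 0.00329) and the NuRD remodeller Chd4 by 0.43 (edgeR FDR 0.0117). The median of the 14 genes was 0.20, beside 0.00 over all genes.

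With shGas41-1, where 18.5% of all genes were called, 1 of the 14 partners was, the NuRD subunit Mta3, which fell by 0.78 on the log2 scale (SE 0.20, edgeR FDR 0.0301). With shGas41-2, where 9.91% were called, Mta3 also fell, by 0.57 (SE 0.15, edgeR FDR 0.0467), and the deacetylase Hdac1 rose by 0.43 (SE 0.11, edgeR FDR 0.0436). Both KDs share the shNT libraries. Hdac1 stood at 13987, 15211 and 13766 counts in shNT and at 22118 and 22286 counts with shGas41-2.

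Of the lists not described above, trophoblast markers summed to between 51.0 and 67.0 CPM in shNT, 35.5 and 44.2 CPM with shGas41-1, 40.0 and 48.6 CPM with shGas41-2, 41.2 and 58.1 CPM at EB day 0, and 153 and 247 CPM at EB day 6. Of 5 tested, 1 rose and 2 fell with shGas41-1 (10.8% and 7.73% of all genes did), 4 rose at EB day 6 (30.5% of all genes did), and with shGas41-2 0 of 6 were called in edgeR (2 at an unadjusted p under 0.05). Of 7 fibroblast markers, the 4 listed in all gene tables summed to at most 13.6 CPM in every library. Few of the 7 passed the filter on low counts, and a gene near 0 at EB day 0 passes it only if it is higher at EB day 6. With shGas41-1, 1 of 2 tested fell, where 7.73% of all genes did. With shGas41-2, 0 of 2 were called in edgeR (0 at an unadjusted p under 0.05), where 9.91% of all genes were. At EB day 6, 2 of 3 tested rose, where 30.5% of all genes did.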
